A study of Homo sapiens with 12 samples.

Results

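LAST-seq and CEL-seq2 were compared on lysate of the human embryonic kidney line HEK293T, an adherent line that carries adenoviral genes and the SV40 large T antigen. The members are the 2 lysate libraries of these assays among the 12 samples of the series, chosen by their labels, with 10 wells each and therefore 20 of the 403 wells deposited. The study set LAST-seq, which amplifies RNA without a prior reverse transcription, against existing single-cell assays in HEK293T, and then used it on eHAP1 cells. Aliquots of lysate do not differ in cell state, so the spread between wells of a library comes from the aliquoting and the assay. The LAST-seq lysate wells carried the A60 RNA spike-in mix, synthetic RNAs with a long poly-A tail. Of the CEL-seq2 lysate wells, the labels gave the ERCC RNA spike-in mix, which has shorter tails, to the first 5 and the A60 mix to the last 5. The LAST-seq lysis buffer also held carrier RNA, of a kind not given in the sources used here. No treatment or genetic change was named for either library. How much lysate a well held, and whether both assays drew on the same lysate, is not given in the sources used here. Each assay had 1 lysate library whose wells were pooled before amplification, so the SDs below describe that library, the comparison has no replicate check, and no p-value between the lysate libraries was computed.

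Both assays mark each mRNA at its poly-A tail with a well barcode and a unique molecular identifier (UMI), so that copies of a molecule are counted once, and both amplify linearly by T7 in vitro transcription. In CEL-seq2, an oligo-dT primer is extended by reverse transcription and a second strand is made before the T7 step. In LAST-seq, the tail anneals to a primer with a uridine and thymidine overhang, RNase H nicks the tail where it pairs with the thymidines, and a polymerase extends it so that the T7 promoter joins the mRNA itself, which serves as the template. The LAST-seq primer is shown because it carries the step in which the assays differ. In the hairpin module of LAST-seq lysate well 1 the capitals mark the well barcode and n the bases of the UMI, and in the rU-dT module the capitals mark the 19 ribouridines.
hairpin module of LAST-seq lysate well 1: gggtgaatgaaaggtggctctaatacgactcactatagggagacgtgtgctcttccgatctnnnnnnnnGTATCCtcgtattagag
rU-dT module of the LAST-seq primer: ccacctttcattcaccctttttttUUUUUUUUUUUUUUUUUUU

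With spike-in species left out, the LAST-seq wells held between 62816 and 92944 UMIs, with a median of 81709.5, and the CEL-seq2 wells between 74047 and 123213, with a median of 80630. For all comparisons except those of deposited depth, each well was thinned at random to the lowest total of the 20 wells, 62816 UMIs. The spike-in UMIs were few and went against a label. The LAST-seq wells held 64 to 194 UMIs of the 24 species of the A60 mix and 0 to 5 of other species, as their label had it. The CEL-seq2 wells labelled with the A60 mix held 21 to 27 UMIs of the A60 species and 31 to 53 of species outside that mix, close to the 30 to 50 and 32 to 51 of the wells labelled ERCC. Which mix those wells held is therefore uncertain, and capture efficiencies were not derived from them. In the 4 HEK293T single-cell libraries of these assays, the medians ranged from 1259 to 5613.5 spike-in UMIs per well. The lysate libraries shared no well barcode with each other, and each shared its 10 barcodes with both single-cell libraries of its own assay.

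The lysate carried the markers of HEK293T at low levels and hardly any of other cells. Vimentin, VIM, had 12, 16.5 and 21 UMIs (lowest, median and highest well) in LAST-seq against 14, 29 and 37 in CEL-seq2, and the RNA-binding protein gene IGF2BP1 had 1, 3 and 7 against 1, 6.5 and 11. All 8 identity markers had a UMI, and 6 of them reached the minimum set for genes, although PAX2 and LHX1, regulators of kidney development, had 3 UMIs or fewer per well in either assay. PTPRC, HBB and PECAM1, which mark leukocytes, red cells and endothelium, had no UMI, and the 5 markers of other cells summed to 0.1 ± 0.316 UMIs per well in LAST-seq and 0.3 ± 0.483 in CEL-seq2 (SD, n = 10 wells).

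At the common total, CEL-seq2 detected more genes in each well. The LAST-seq wells had a UMI for 7664 to 7906 genes, with a median of 7740.5 (mean 7754.9 ± 81.7, SD, n = 10 wells). The CEL-seq2 wells had one for 8352 to 9072 genes, with a median of 8660 (mean 8662.3 ± 271). Every CEL-seq2 well was above every LAST-seq well, and the difference of the means, LAST-seq minus CEL-seq2, was -907.4 genes. For genes with at least 2 UMIs the means were 4770.6 and 5279.5. The spread over wells was the smaller in LAST-seq.

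The additional genes of CEL-seq2 were low and of mixed type. Over the 10 thinned wells, 14270 genes had a UMI in LAST-seq and 17832 in CEL-seq2, of which 12508 had one in both. The 5324 genes with a UMI in CEL-seq2 alone comprised 2046 protein-coding genes (38.4%), 1624 long noncoding RNAs (lncRNAs, 30.5%) and 1299 pseudogenes (24.4%), and the 1762 genes of LAST-seq alone comprised 642 (36.4%), 474 (26.9%) and 554 (31.4%). Among the genes of both, 80.5% were protein-coding and 5.96% were lncRNAs. The median of the genes found by a single assay was 0.1 UMI per well, which is 1 UMI in the library, and 166 genes of CEL-seq2 alone and 63 of LAST-seq alone reached a mean of 1. Genes detected in a single well numbered 4526 in CEL-seq2 and 2590 in LAST-seq.

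Genes detected in all wells were about as many in both assays. They numbered 2905 in LAST-seq and 2857 in CEL-seq2, and 1888 of them were common to both lists, which is 65.0% of the former and 66.1% of the latter. Genes present in at least 8 wells of an assay and at most 2 of the other numbered 163 for LAST-seq and 301 for CEL-seq2. For pairs of wells, log10(UMI + 1) correlated across genes with a Pearson's r of 0.719 to 0.736 within LAST-seq (median 0.727, 45 pairs) and 0.651 to 0.685 within CEL-seq2 (median 0.672). A median of 56.9% of the genes found in either well of a pair was found in both wells in LAST-seq, and 52.5% in CEL-seq2. Between the means of the libraries r was 0.842 over 19594 genes. Genes are not independent replicates, and these correlations describe the libraries.

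Protein-coding genes took the larger share of UMIs in LAST-seq. Their share was 77.0%, 78.0% and 78.2% (lowest, median and highest well) in LAST-seq against 66.5%, 68.0% and 72.4% in CEL-seq2, a difference of 9.50 percentage points between the means. lncRNAs held 1.32%, 1.39% and 1.58% of the UMIs in LAST-seq against 3.19%, 4.75% and 5.67% in CEL-seq2. For both classes the wells of the assays did not overlap. Pseudogenes, most of them processed copies that share sequence with their parent genes, held 18.1% to 19.1% in LAST-seq and 18.9% to 23.0% in CEL-seq2, and their ranges overlapped. Genes of the mitochondrial chromosome held 18.2%, 19.2% and 20% in LAST-seq against 13.3%, 14.6% and 15.3% in CEL-seq2.

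**Figure D1:**
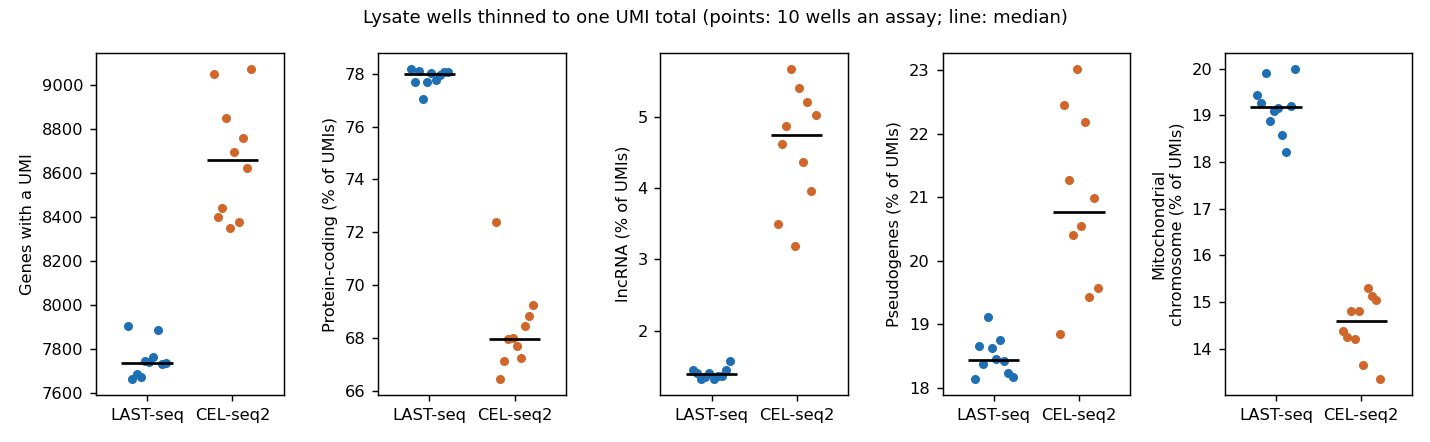
Genes detected and shares of UMIs in the 10 thinned lysate wells of LAST-seq (blue) and of CEL-seq2 (orange), with a point for each well and a line at the median; the y axes are counts of genes and percent of UMIs and do not start at 0. The assays do not overlap in genes detected, protein-coding, lncRNA or mitochondrial shares, while the pseudogene shares of 18.1% to 19.1% and 18.9% to 23.0% meet.

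Gene by gene, the assays differed widely around a centre close to equal. The minimum was a mean of 1 UMI over the 20 wells, which 6815 genes reached. Their ratios of LAST-seq to CEL-seq2 means had a median of 0.944, with quartiles of 0.508 and 1.62. In all, 2884 genes (42.3%) were past 2-fold, 1189 (17.4%) higher in LAST-seq and 1695 (24.9%) higher in CEL-seq2, where past 2-fold is a size and not a call of significance. At least 10-fold differences were found for 77 genes in favour of LAST-seq and 240 in favour of CEL-seq2. As a yardstick inside 1 library, 19.3% of the genes were past 2-fold between the first 5 and the last 5 CEL-seq2 wells, whose spike-in labels differ. With 5 wells a side in place of 10, counting noise weighs more in that share than in the 42.3%. All wells of an assay lay above all wells of the other for 516 genes (7.57%), 224 (3.29%) in LAST-seq and 292 (4.28%) in CEL-seq2.

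Of the gene types with more than 100 genes above the minimum, pseudogenes had the lowest median ratio. Among 5930 protein-coding genes the median log2 ratio of LAST-seq to CEL-seq2 was -0.04, 993 genes were past 2-fold in favour of LAST-seq and 1298 in favour of CEL-seq2, and the well ranges were apart for 170 and 103. The 149 lncRNAs had a median of -0.21, with 39 and 60 past 2-fold. The 689 pseudogenes had a median of -0.78, with 148 (21.5%) and 317 (46.0%) past 2-fold and 41 and 155 apart. Over all genes, 17.4% and 24.9% were past 2-fold and 3.29% and 4.28% apart. The counting of reads that match a pseudogene and its parent equally is not given in the sources used here, so single pseudogenes are uncertain. The intervals on ratios of single genes given below are exact binomial 95% intervals on the summed UMIs and cover counting error only.

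**Figure D2:**
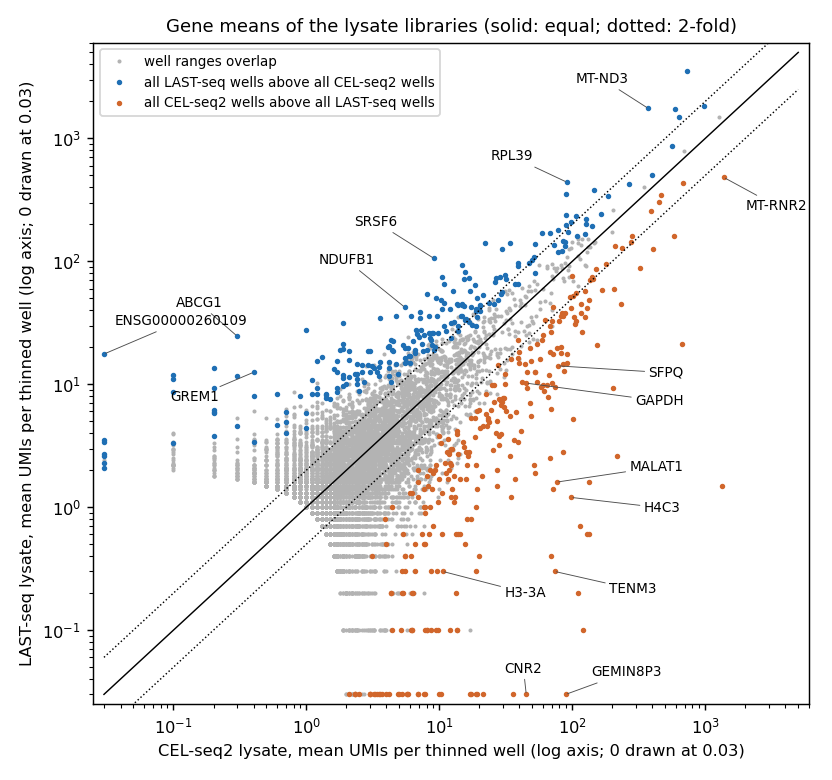
Mean UMIs per thinned well of each gene, CEL-seq2 on the x axis and LAST-seq on the y axis, both on log axes with a mean of 0 drawn at 0.03; the solid line marks equal means and the dotted lines 2-fold. Coloured points are the 224 genes with all LAST-seq wells above all CEL-seq2 wells (blue) and the 292 with the reverse (orange), and grey points are genes whose wells overlap.

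The 8 protein-coding genes most in favour of LAST-seq were chosen among genes whose wells did not overlap. By that rule, all 10 LAST-seq wells detected them. In CEL-seq2, PSENEN was detected in 7 wells, PKD2 in 5 and the others in 0 to 3. ABCG1, a cholesterol exporter, had 13, 25.5 and 39 UMIs (lowest, median and highest well) in LAST-seq against 0, 0 and 2, a ratio of 82.3 (95% interval 27.8 to 402). ABCA8, another lipid transporter gene, had 5, 13 and 18 against 0, 0 and 2, and GREM1, a secreted antagonist of bone morphogenetic proteins, 10, 12 and 17 against 0, 0 and 2. ELAVL3, a neuronal RNA-binding protein gene, had 2, 6 and 11 UMIs against 0, 0 and 1. By the same rule, no CEL-seq2 well reached the lowest LAST-seq well for these 4 genes. GREM1 overlaps GREM1-AS1, and ABCA8 overlaps ABCA9-AS1, on the opposite strand. CNPY3, a chaperone of Toll-like receptors, had 3, 6 and 10 UMIs against 0, 0 and 1. PSENEN, a subunit of gamma-secretase, had 4, 17 and 27 UMIs against 0, 1.5 and 3, and PKD2, a cation channel of primary cilia, 4, 8.5 and 16 against 0, 0.5 and 2. Both overlap other annotated genes. HPSE, the heparan sulfate endoglycosidase, had 1, 2 and 6 UMIs and none in CEL-seq2, and was at least 9-fold higher when CEL-seq2 was set at a floor of 3 UMIs over the library. It was not higher in LAST-seq in the single-cell libraries described further on, with 3 and 7 UMIs in LAST-seq against 12 and 5 in CEL-seq2, too few to be tested.

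Among other gene types, the entry with the highest sum in LAST-seq and none in CEL-seq2 was ENSG00000260109, an unprocessed pseudogene on chromosome 15. It had 14, 17 and 22 UMIs in LAST-seq and none in the 10 CEL-seq2 wells, at least 58.7-fold higher at the same floor. The rule also named the lncRNAs ENSG00000259523 (at least 11.7-fold) and GLIPR1-AS1 (at least 11.3-fold), the ribosomal protein pseudogene RPL17P26 (at least 8.67-fold) and ENSG00000188850 (at least 7.67-fold). GLIPR1-AS1, ENSG00000259523 and RPL17P26 lie opposite to GLIPR1, TJP1 and DST. Without knowledge of the strand setting, their reads cannot be told apart from those of these genes.

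In favour of CEL-seq2, the genes with no UMI in LAST-seq included CNR2, the peripheral cannabinoid receptor, with 37, 44.5 and 56 UMIs in CEL-seq2, at least 150-fold higher. CNR2 overlaps the pseudogene BTBD6P1 on the same strand, so the source of these reads is uncertain. HMGB1P1, annotated as a protein-coding copy of the chromatin protein gene HMGB1, had 7, 18.5 and 27 UMIs (at least 58-fold), and ANKRD36C, an ankyrin repeat gene of a near-identical family, 1, 7.5 and 11 (at least 23-fold). The linker histone H1-2 had 1, 2.5 and 8 UMIs (at least 11.7-fold), the kinase gene NEK5 2, 3 and 6 (at least 11-fold), PAK1IP1, a gene of ribosome assembly, 1, 3.5 and 6 (at least 10-fold), and ARID4A, a chromatin regulator, 1, 2.5 and 4 (at least 7.67-fold). Every CEL-seq2 well had a UMI for each of these 7 genes, by the rule that chose them.

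TENM3, a cell adhesion gene of the teneurin family, had 0, 0 and 2 UMIs in LAST-seq against 19, 67.5 and 149 in CEL-seq2, a log2 ratio of -7.94. It varied widely over the CEL-seq2 wells and holds several shorter annotated genes. Of other types, the processed pseudogene GEMIN8P3, which lies inside DACH2 on the same strand, had no UMI in LAST-seq against 43, 80 and 162 in CEL-seq2, which was at least 297-fold higher. The lncRNA PCAT1 had 6, 35.5 and 74 (at least 120-fold), and ENSG00000280800, an lncRNA on chromosome 21, 7, 19 and 33 (at least 63-fold). HMGB1P24, inside ACACA, had 11, 22 and 31 (at least 70.7-fold), and YBX1P1 had 8, 21 and 26 (at least 64-fold). Their wells did not overlap between the assays, by the rule that chose them.

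Replication-dependent histone mRNAs were low in LAST-seq. These mRNAs end in a stem-loop in place of a poly-A tail, although a part of them carries tails, and they supply histones during S phase. Of 69 listed genes, 27 had a UMI in the lysate, and together they had 1, 4 and 8 UMIs per well in LAST-seq (lowest, median and highest) against 82, 108.5 and 132 in CEL-seq2, a ratio of the sums of 0.0369 (95% interval 0.0264 to 0.0504). Only H4C3 and H1-2 reached the minimum, and both were past 2-fold in favour of CEL-seq2. H4C3, a histone H4 gene, had 0, 0 and 6 UMIs in LAST-seq against 75, 94.5 and 120 in CEL-seq2, a log2 ratio of -6.35. Its mean was 98.1 of the 111 UMIs per well of the whole list in CEL-seq2, and 1.2 of the 4.1 in LAST-seq. The ratio of the sums therefore rests largely on H4C3. The ends of both transcripts are shown with the stem-loop in capitals, in the strand of the gene, from GENCODE canonical transcripts on GRCh38. H4C3 lies at chr6:26104313-26104337 on the plus strand and H1-2 at chr6:26055740-26055763 on the minus strand, both in the 3′ UTR.
H4C3: caaaGGCCCTTTTCAGGGCCgctca
H1-2: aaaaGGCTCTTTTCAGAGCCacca
The motif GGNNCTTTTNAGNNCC, in which N is any base, was searched on the transcript strand only in the last 100 bases of each canonical transcript. It was found in 65 of the 69 replication-dependent histone genes (94.2%), in 71 of 62700 transcripts in all (0.113%), and in 2 of the 6805 lysate genes above the minimum that had a transcript sequence (0.0294%), H4C3 and H1-2. In the other histone genes, which are polyadenylated and expressed outside S phase, the picture differed from gene to gene. Of 8 above the minimum, none was past 2-fold in favour of LAST-seq and 2 were in favour of CEL-seq2 (25%, against 24.9% of all genes). Their median log2 ratio was 0.22. H3-3A and H3-3B encode the same histone H3.3 protein. H3-3B had 10, 22.5 and 28 UMIs in LAST-seq against 7, 16 and 23 in CEL-seq2, whereas H3-3A had 0, 0 and 1 against 5, 11 and 18.

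Long internal runs of adenosine are shown next, since an oligo-dT primer can anneal to them as well as to a tail. For each canonical transcript, the longest A run was taken outside the last 30 bases, and runs of at least 12 were present in 6.04% of all transcripts and in 16.2% of the lysate genes above the minimum. Named genes of either direction carried such runs. HMGB1P1 (chr20:57489583-57489612, minus strand, 5′ UTR), NEK5 (chr13:52034501-52034530, minus strand, 3′ UTR), PAK1IP1 (chr6:10709601-10709630, plus strand, 3′ UTR) and H3-3A (chr1:226071509-226071538, plus strand, 3′ UTR) were the higher in CEL-seq2. GREM1 (chr15:32738081-32738107, plus strand, 3′ UTR) and ELAVL3 (chr19:11451489-11451518, minus strand, 3′ UTR) were the higher in LAST-seq. The run is in capitals, and for GREM1 its first 24 bases are shown.
HMGB1P1: ctcAAAAAAAAAAAAAAAAgtattggccac
NEK5: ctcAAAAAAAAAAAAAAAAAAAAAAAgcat
PAK1IP1: tttAAAAAAAAAAAAAAAActggtaaaatt
H3-3A: ctcAAAAAAAAAAAAAAAAAtttctcttct
GREM1: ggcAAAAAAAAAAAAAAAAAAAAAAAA
ELAVL3: tgtAAAAAAAAAAAAAAAAAAAAAgacaaa
Over the 1100 genes with a run of at least 12, the median log2 ratio was -0.28, with 136 genes past 2-fold in favour of LAST-seq (12.4%) and 334 in favour of CEL-seq2 (30.4%). Over the 5705 genes without one it was -0.03, with 18.5% and 23.8%. Length moved with this difference. Genes of the longest sixth by transcript length, above 5982 bases, had a median of -0.44, with 134 and 396 of 1135 past 2-fold, while the medians of the other sixths lay between -0.09 and 0.08. Among the longest sixth of protein-coding genes, above 6336 bases, the median was -0.47 with an A run and -0.36 without. In the other sixths it was -0.14 with a run and 0.04 without. In both length classes the median was the lower with a run. In the longest sixth, 33.7% with a run and 34.9% without were past 2-fold in favour of CEL-seq2, and 10.3% and 12.7% in favour of LAST-seq. In the other sixths these shares were 26.7% and 18.3%, and 13.2% and 18.4%. The medians in the single-cell libraries described further on were -0.56 and -0.55 in the longest sixth. They were -0.0015 and 0.33 in the others. By GC content, the lysate medians of the sixths lay between -0.18 and 0.06 without a steady trend. The single-cell medians of these sixths rose at each step, from -0.05 at the lowest GC content to 0.41 at the highest.

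Abundant nuclear lncRNAs were also low in LAST-seq. Of 14 listed, 8 were above the minimum, with a median log2 ratio of -2.05. None was past 2-fold in favour of LAST-seq and 5 were in favour of CEL-seq2 (62.5%, against 24.9% of all genes). MALAT1, a nuclear speckle RNA whose mature 3′ end is a triple helix and not a poly-A tail, had 0, 1.5 and 4 UMIs in LAST-seq against 41, 79 and 99 in CEL-seq2, a log2 ratio of -5.58. NEAT1, the scaffold RNA of paraspeckles, had 0, 2 and 5 UMIs against 7, 11.5 and 22. Every CEL-seq2 well was above every LAST-seq well for both. TUG1 (log2 ratio -4.58), FTX (-2.58) and KCNQ1OT1 (-1.70) were past 2-fold in the same direction at low counts. DANCR and NORAD, which are found largely in the cytoplasm, had log2 ratios of 0.76 and 0.69, and OIP5-AS1 one of 0.05. Without the strand setting, KCNQ1OT1, which lies opposite to KCNQ1, is uncertain. The host genes of small nucleolar RNAs, spliced noncoding RNAs with snoRNAs in their introns, went the other way, with a median log2 ratio of 0.50. Of 18 above the minimum, 7 were past 2-fold in favour of LAST-seq (38.9%, against 17.4% of all genes). In favour of CEL-seq2 were 2 (11.1%, against 24.9%). SNHG5 had 33, 41.5 and 52 UMIs in LAST-seq against 11, 17.5 and 23 in CEL-seq2, SNHG1 had 19, 22 and 29 against 8, 11 and 22, and SNHG11 and SNHG29 had log2 ratios of 3.70 and -1.68.

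RNAs without a tail at other loci were too low for a comparison gene by gene. No RNA polymerase III transcript of the list reached the minimum, and the 11 listed genes summed to 0.8 ± 0.632 and 1.1 ± 0.994 UMIs per well in LAST-seq and CEL-seq2. Of the small nuclear RNA genes 1 reached it, RNU4ATAC of the minor spliceosome, with 0, 0 and 1 UMIs against 0, 3 and 13. It overlaps CLASP1-AS1 on its own strand and CLASP1 on the other, so its reads are uncertain. No small nucleolar RNA gene reached the minimum. As sums, small nuclear RNA genes, RNU4ATAC included, had 8.0 ± 2.83 UMIs per well in LAST-seq and 17.0 ± 6.80 in CEL-seq2. The ratio was 0.471 (95% interval 0.356 to 0.617). Small nucleolar RNA genes had 4.4 ± 2.07 and 9.4 ± 3.47, a ratio of 0.468 (95% interval 0.320 to 0.676). The wells of the assays overlapped for both sums.

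Mitochondrial transcripts, most of which carry short poly-A tails, differed strongly in proportion. The 13 mRNAs together had 10237, 10844.5 and 11432 UMIs per well in LAST-seq (lowest, median and highest) against 6012, 6924 and 7303 in CEL-seq2, a ratio of 1.6. The excess came from some of them, since 3 were past 2-fold in favour of LAST-seq and 1 in favour of CEL-seq2. The wells were apart for 5 in each direction, against 3.29% and 4.28% of all genes. MT-ND3, a subunit of complex I, had 1648, 1751 and 1877 UMIs against 292, 391 and 448, a log2 ratio of 2.24. MT-CO3 of complex IV and MT-CYB of complex III had log2 ratios of 1.54 and 1.23. MT-ATP6 of ATP synthase had 1770, 1809 and 1929 against 862, 983.5 and 1077, and MT-ATP8, which shares a transcript with MT-ATP6 and overlaps it, 6, 13 and 18 against 71, 85 and 106, a log2 ratio of -2.75. MT-ND6, MT-ND4 and MT-CO2 had log2 ratios of 0.64, 0.24 and 0.23, and those of MT-ND2, MT-ND4L, MT-CO1, MT-ND1 and MT-ND5 lay between -0.41 and -0.82. Reads of overlapping genes such as MT-ATP8 and MT-ATP6 can be split by the counting, so these values are uncertain. MT-ND6 lies on the minus strand next to MT-ND5 on the plus strand, so without the strand setting its reads are uncertain too. MTATP6P1, a nuclear copy of MT-ATP6 on chromosome 1, had 3349, 3531 and 3925 UMIs in LAST-seq against 650, 726.5 and 817 in CEL-seq2. In LAST-seq this was above each of the 13 mitochondrial mRNAs, and MTATP6P1 shares sequence with MT-ATP6. The ribosomal RNAs went the other way. MT-RNR2 had 434, 482 and 549 UMIs against 1206, 1381.5 and 1552, and MT-RNR1 64, 88.5 and 105 against 241, 321.5 and 388, with log2 ratios of -1.52 and -1.87.

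Nuclear genes of the respiratory chain had the highest median log2 ratio of the lists, although a larger share of the small nucleolar RNA host genes was past 2-fold (38.9%). Of 77 above the minimum, 21 were past 2-fold in favour of LAST-seq (27.3%, against 17.4% of all genes) and 7 in favour of CEL-seq2 (9.09%, against 24.9%), with a median log2 ratio of 0.63. The wells were apart for 19 genes in LAST-seq and 1 in CEL-seq2, against 3.29% and 4.28% of all genes. Their sum was 1888 ± 54.0 UMIs per well in LAST-seq and 1081 ± 62.9 in CEL-seq2 (SD, n = 10 wells). NDUFB1, an accessory subunit of complex I, had 34, 41.5 and 53 UMIs against 2, 6 and 9, a ratio of 7.67 (95% interval 5.78 to 10.4). UQCRH of complex III had 79, 98 and 109 against 27, 37 and 51, and COX7C of complex IV 69, 94 and 107 against 27, 38.5 and 55. SDHA, the flavoprotein of complex II, went the other way, with 1, 2 and 4 against 5, 8.5 and 16. The genes of the mitochondrial ribosome stood near the centre of all genes, with 8 and 10 of 73 past 2-fold and a median of -0.08, which is 0 once centred on all genes. MRPS21 and MRPL39 had log2 ratios of 1.56 and -2.43.

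Cytosolic ribosomal protein genes split evenly. All 79 were above the minimum, with a median log2 ratio of 0.12. In each direction 13 were past 2-fold (16.5%), against 17.4% and 24.9% of all genes. The wells were apart for 22 in LAST-seq and 19 in CEL-seq2, against 3.29% and 4.28% of all genes. RPL39, on the X chromosome, had 393, 431 and 527 UMIs in LAST-seq against 59, 93.5 and 103 in CEL-seq2, a ratio of 4.85 (95% interval 4.51 to 5.21). RPS10 had 17, 19.5 and 25 against 64, 82 and 102, a ratio of 0.244 (95% interval 0.208 to 0.285). RPS4X had 380, 431 and 464 against 225, 256.5 and 315, and RPL30 a log2 ratio of 2.42. For each of these 4 genes the wells did not overlap, although RPS4X, with a ratio of 1.61, was under 2-fold. RPS10 overlaps the read-through gene RPS10-NUDT3. The processed pseudogenes of ribosomal proteins, whose reads may come from their parents, were the higher in the CEL-seq2 lysate, with a median of -0.49. Past 2-fold were 73 and 131 of 311 (23.5% and 42.1%), and the sums were 3558 ± 151 and 5344 ± 553 UMIs per well. RPL5P6 had 0, 1 and 2 UMIs in LAST-seq against 92, 117 and 140, and RPS3AP25 4, 12 and 16 against 0, 0 and 1. The most abundant were RPS15P4 and RPL13P12, with log2 ratios of 0.67 and -0.65.

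Splicing factor genes had a median log2 ratio of 0.21 and a sum 1.29 times that of CEL-seq2. Past 2-fold were 9 and 14 of 71 (12.7% and 19.7%), both under the 17.4% and 24.9% of all genes. SRSF6, a serine and arginine rich splicing factor, had 87, 105.5 and 122 UMIs in LAST-seq against 5, 9 and 14 in CEL-seq2, a ratio of 11.6 (95% interval 9.35 to 14.5). HNRNPA2B1 had a log2 ratio of 0.14, and PRPF31, a factor of the spliceosomal tri-snRNP that overlaps TFPT on the other strand, one of -3.29. Glycolysis genes had a median of 0.16, with 2 of 13 past 2-fold each way (15.4%). LDHB, a lactate dehydrogenase subunit, had 117, 138.5 and 163 UMIs against 35, 54 and 66, whereas GAPDH had 6, 8.5 and 17 against 29, 42.5 and 61. ENO1 and PFKM had log2 ratios of 0.36 and 2.30. Of the actin genes, ACTB, with 7, 12.5 and 17 UMIs against 31, 46.5 and 61, was the higher in CEL-seq2, while ACTG1, with 75, 87 and 100 against 65, 77 and 90, overlapped between the assays.

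Of the lists with more than 10 genes above the minimum, the chaperones had the largest share past 2-fold in favour of CEL-seq2. Of 18 heat-shock and folding chaperone genes, 8 were past 2-fold in that direction (44.4%, against 24.9% of all genes) and 1 in favour of LAST-seq, with a median log2 ratio of -0.61 and sums of 251 ± 17.9 and 418 ± 60.4 UMIs per well. HSP90AA1, the inducible cytosolic HSP90, had 32, 39 and 57 UMIs in LAST-seq against 98, 126.5 and 162 in CEL-seq2, and HSP90AB1 25, 31.5 and 53 against 54, 60.5 and 79. CALR, a chaperone of the endoplasmic reticulum, had 0, 0 and 1 against 2, 4 and 14. HSPB1, a small heat-shock protein gene, went the other way with 8, 11.5 and 17 against 1, 2 and 4. Of the 8 subunits of the TRiC chaperonin 1 was past 2-fold each way, CCT3 with 68, 70.5 and 84 against 18, 26.5 and 36 and CCT2 with 8, 13.5 and 17 against 14, 29.5 and 43. The median of the subunits was -0.45.

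Genes of G2 and mitosis had a median log2 ratio of -0.79, with 1 of 20 past 2-fold in favour of LAST-seq (5%) and 7 in favour of CEL-seq2 (35%). Over all genes these shares were 17.4% and 24.9%. TOP2A, a topoisomerase, had 4, 5 and 10 UMIs against 14, 17 and 28, CDC20, an activator of the anaphase-promoting complex, 0, 1 and 4 against 2, 6 and 9, and CDK1, the mitotic kinase, 5, 10 and 16 against 2, 4 and 8. S-phase genes had a median of -0.48, with 2 and 6 of 17 past 2-fold (11.8% and 35.3%). The clamp PCNA and the helicase subunit MCM7 had log2 ratios of 0.24 and -0.14. Translation factors had a median of -0.47, with 1 and 14 of 50 past 2-fold (2% and 28%). Elongation factors EEF2 and EEF1B2 had log2 ratios of 0.59 and -0.77, and EIF5AL1, a near copy of EIF5A that may share its reads, had 61, 75 and 90 UMIs against 16, 27.5 and 50. Among actin and tubulin genes 0 and 3 of 8 were past 2-fold (37.5% in favour of CEL-seq2). Of these 3, TUBA1A had 10, 14 and 21 UMIs against 67, 83 and 107. TUBA1C, by contrast, had 30, 42 and 50 against 16, 22.5 and 35. The tubulin genes are near-identical in their coding parts. Proteasome genes had 1 and 7 of 31 past 2-fold (3.23% and 22.6%). Their median was -0.06, which became 0.02 when ratios were centred on the median gene. PSMA4 and PSMD7 had log2 ratios of 1.08 and -3.67. Zinc finger genes of chromosome 19, many of them repressors of transposable elements, were low, with 25 of 246 above the minimum. Of these, 7 and 9 were past 2-fold (28% and 36%). ZNF428, ZNF302 and ZNF714 had log2 ratios of 2.35, -1.64 and -3.04.

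Immediate-early genes, which respond to handling and stress, had similar sums in the lysates. Of 10 above the minimum, 1 was past 2-fold in favour of LAST-seq (10%, against 17.4% of all genes) and 2 in favour of CEL-seq2 (20%, against 24.9%). The median log2 ratio was -0.36, and the sums were 79.4 ± 11 and 76.2 ± 13.7 UMIs per well. JUN had 25, 32 and 35 UMIs in LAST-seq against 12, 18.5 and 35 in CEL-seq2, EGR1 12, 17 and 32 against 18, 24.5 and 31, and FOS 5, 7.5 and 12 against 1, 2.5 and 7. All 3 overlapped between the assays.

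**Figure D3:**
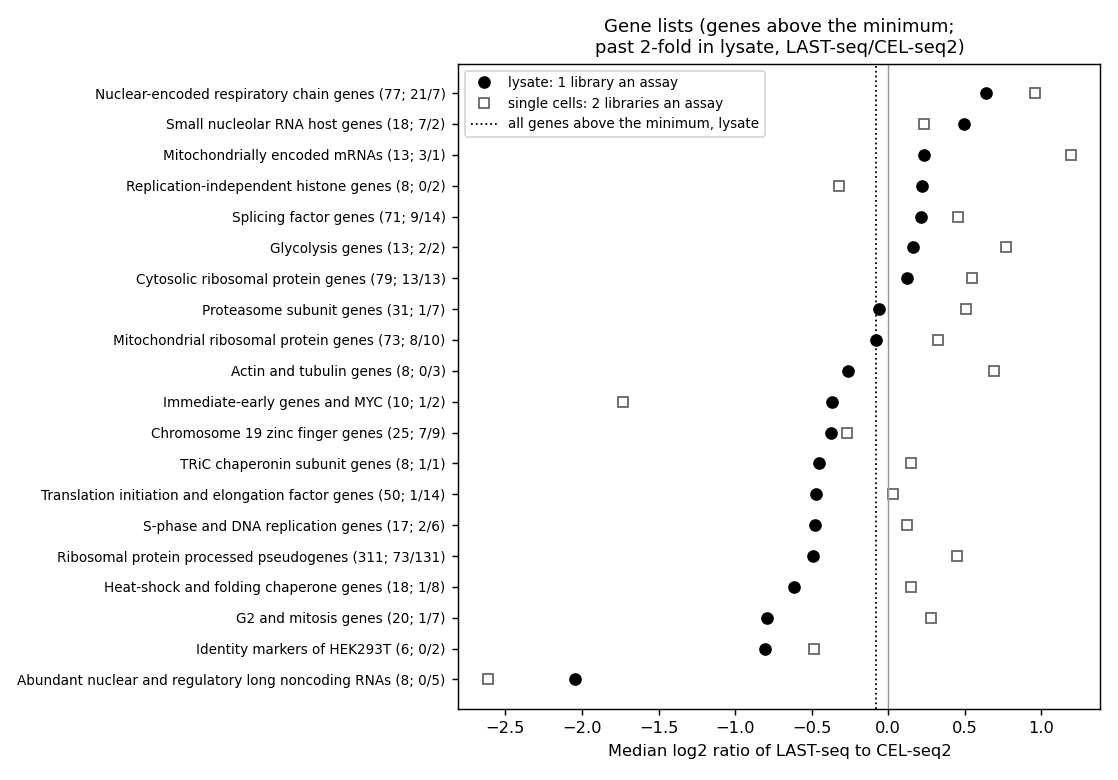
Median log2 ratio of LAST-seq to CEL-seq2 for the gene lists with at least 3 genes above the minimum, in lysate (filled circles, 1 library an assay) and in single HEK293T cells (open squares, 2 libraries an assay). Brackets give the genes above the minimum and those past 2-fold in lysate in favour of LAST-seq and of CEL-seq2. The squares cover all members tested in single cells, which can include genes under the lysate minimum. For zinc finger genes of chromosome 19 these were 121, against 25 in lysate. The dotted line is the lysate median of all genes, -0.08. Respiratory chain genes at 0.63 and nuclear lncRNAs at -2.05 are the outermost circles.

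At equal levels, wells of LAST-seq varied less. The noise was compared over the 2397 genes whose means reached 1 UMI in both assays and lay within 1.5-fold of each other, so that counting noise was alike. The median coefficient of variation (CV) over wells was 0.582 in LAST-seq and 0.648 in CEL-seq2, and the CV was the lower in LAST-seq for 1490 genes (62.2%) and in CEL-seq2 for 893. The Fano factor, the variance over the mean, had a median of 1.0 in LAST-seq and 1.22 in CEL-seq2, where pure counting over 10 wells gives a median of 0.927. Fano factors above 2 were found for 140 genes (5.84%) in LAST-seq and 359 (15.0%) in CEL-seq2. The share of genes with the lower CV in LAST-seq was larger at higher levels, where the CVs of both assays were smaller. For the 112 matched genes whose means reached 20 UMIs, the median CV was 0.135 against 0.158, and the LAST-seq CV was the lower for 72.3%. Their median Fano factors were 1.13 and 1.57, further apart than the 1.0 and 1.22 of all matched genes.

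Over all genes, without matching, the median Fano factor rose from 0.926 for means of 1 to 2 UMIs to 1.22 for means of at least 50 in LAST-seq, and from 1.21 to 1.80 in CEL-seq2. In the lowest of these classes, a gene was detected in 75% of the LAST-seq wells on average, where counting noise at its mean gives 74.1%, and in 70.7% of the CEL-seq2 wells, where it gives 73.9%. In the highest class, 21.1% of the LAST-seq genes and 44.4% of the CEL-seq2 genes had a Fano factor above 2.

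**Figure D4:**
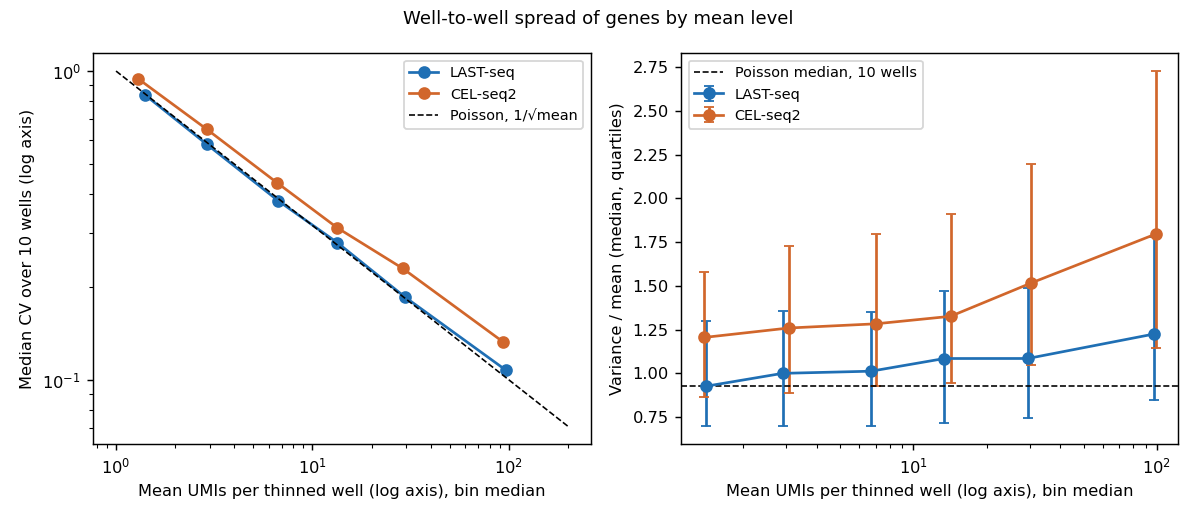
Well-to-well spread against the mean UMIs per thinned well for LAST-seq (blue) and CEL-seq2 (orange), genes binned by mean: left, median CV with the counting limit (dashed), both axes logarithmic; right, median Fano factor with quartiles as bars and the counting median of 0.927 (dashed). The CEL-seq2 line lies above the LAST-seq line in every bin, with medians from 1.21 to 1.80 against 0.926 to 1.22.

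The 5 genes with the highest Fano factors were not the same in the assays, apart from MT-ND4. Where both means reached 5 UMIs, the highest Fano factors in CEL-seq2 were those of ENSG00000269028 (29.7), an entry without a name in the annotation used, with 450 to 923 UMIs, and of SFPQ (27.5), a splicing and paraspeckle protein gene. SFPQ had 33, 66 and 186 UMIs in CEL-seq2 and 6, 14.5 and 21 in LAST-seq. MT-ND4 (11.8) followed with 1063 to 1439 UMIs. RPL4P2 had 44 UMIs in CEL-seq2 well 2 against a median of 11, and CANX, a chaperone of the endoplasmic reticulum, 58 in well 1 against a median of 15.5. In LAST-seq the highest were MT-ND4 (9.1), with 1333 to 1751 UMIs, the mitochondrial-like MTATP6P1 (5.9) and MT-CYB (4.4). The lncRNA ENSG00000232035 (4.2) had 9, 21.5 and 44 UMIs, and RPS3A (3.5) 97, 141.5 and 175.

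The lysate differences were then set against single HEK293T cells, of which each assay had 2 libraries of 10 cells. By their labels, LAST-seq library 1 carried the A60 mix, LAST-seq library 2 and CEL-seq2 library 2 the ERCC mix, and CEL-seq2 library 1 both mixes. Nothing in the labels says that these libraries came from separate cultures, so the p-values measure the spread between these libraries, which may be technical. With UMIs summed per library and edgeR's quasi-likelihood test with Benjamini-Hochberg adjustment, 2944 of 11270 genes (26.1%) passed 0.05, 1273 (11.3%) higher in LAST-seq and 1671 (14.8%) higher in CEL-seq2. Of the genes that passed, 43.2% were the higher in LAST-seq, and 24.4% when the libraries were scaled to their totals alone. The count fell to 1371 without LAST-seq library 1 and to 1092 without LAST-seq library 2. Leaving out a library leaves 1 in that assay, which is then assumed to vary like the pair of the other assay. Of the 1171 tested genes past 2-fold in favour of LAST-seq in lysate, 532 (45.4%) passed in the same direction and 9 in the other. Of the 1678 in favour of CEL-seq2, 661 (39.4%) passed in the same direction and 15 in the other. Among 3923 genes under 2-fold in lysate, 587 (15.0%) passed in the direction of their lysate ratio. Where the lysate wells were apart, 187 of 221 genes of LAST-seq and 181 of 288 of CEL-seq2 passed, all in the same direction. Pearson's r of the log2 ratios in lysate and single cells was 0.715 over 6716 genes, whose libraries are not shared but whose assays and primers are.

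Several of the strongest lysate differences were found again in single cells. ABCG1 differed by 5.35 on the log2 scale (edgeR, adjusted p = 6e-05), GREM1 by 5.24 (adjusted p = 0.00016) and SRSF6 by 4.18 (adjusted p = 0.00019), all higher in LAST-seq. MALAT1, with 16 and 12 UMIs in the LAST-seq and 3344 and 2171 in the CEL-seq2 libraries, differed by -7.22 (edgeR, adjusted p = 1.8e-05), NEAT1 by -3.62 (adjusted p = 0.00022) and H3-3A by -3.74 (adjusted p = 0.00031). H4C3 differed by -5.15 (edgeR, adjusted p = 0.00088). Of the 7 replication-dependent histone genes tested, 5 passed, all higher in CEL-seq2, against 14.8% of all genes tested. RPL39 and MT-ND3 differed by 2.47 (edgeR, adjusted p = 0.0021) and 3.0 (adjusted p = 0.0016). NDUFB1 differed by 2.54 (edgeR, adjusted p = 0.0013). Of 77 respiratory chain genes, 38 passed in favour of LAST-seq and 3 in favour of CEL-seq2, against 11.3% and 14.8% of all genes tested. Each of these 10 genes stayed past the threshold in the same direction when any of the 4 libraries was left out. Genes with no UMI in LAST-seq lysate were close to absent there again: GEMIN8P3 had 0 and 0 UMIs in the LAST-seq single-cell libraries and 6186 and 2919 in those of CEL-seq2, CNR2 0 and 1 against 1401 and 1358, and HMGB1P1 0 and 2 against 322 and 263.

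Other genes past 2-fold in lysate did not pass the test in single cells. GAPDH, past 2-fold in lysate, differed by -0.80 in single cells (edgeR, adjusted p = 0.16), ACTB by -0.40 (adjusted p = 0.37), HSP90AA1 by -0.46 (adjusted p = 0.30), SFPQ by -0.23 (adjusted p = 0.73) and PKD2 by 0.93 (adjusted p = 0.21). Whether their effects differ between lysate and single cells was tested by an interaction term in edgeR over all 6 libraries, added after the data were seen, in which the lone lysate libraries are assumed to vary like the others. None of these 5 genes passed it. Across all genes 1 of 10646 did (0.00939%), ENSG00000260109, and 874 had an unadjusted p under 0.05. In single cells that entry had 127 and 124 UMIs in LAST-seq against 76 and 77 in CEL-seq2. The immediate-early genes differed between the CEL-seq2 single-cell libraries themselves. FOS had 487 and 5 UMIs, EGR1 579 and 12 and JUN 1145 and 358 in CEL-seq2 libraries 1 and 2, against 50 and 36, 6 and 6, and 62 and 138 in LAST-seq. FOS differed by -2.0 in all 4 libraries (edgeR, adjusted p = 0.23) and by 3.29 without CEL-seq2 library 1 (adjusted p = 0.00112), a reversed direction, with the spread taken from the LAST-seq pair alone. EGR1 passed with all 4 libraries (edgeR, -5.10, adjusted p = 0.020) and not without CEL-seq2 library 1 (-0.78, adjusted p = 0.78), with the same limit.

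Several gene lists had medians of the opposite sign in lysate and in single cells. The lysate medians covered the members above the minimum and the single-cell medians all members tested there. The genes of a list were therefore not always the same. Over all genes tested in single cells, 11.3% passed in favour of LAST-seq and 14.8% in favour of CEL-seq2 (edgeR). The processed pseudogenes of ribosomal proteins had a median log2 ratio of -0.49 in lysate and 0.45 in single cells, where 85 of 354 tested passed in favour of LAST-seq and 55 in favour of CEL-seq2 (edgeR). The G2 and mitosis genes had medians of -0.79 and 0.28, although 1 of 20 passed in favour of LAST-seq and 6 in favour of CEL-seq2. Chaperones went from -0.61 to 0.15, with 1 and 4 of 19 passing, and S-phase genes from -0.48 to 0.12, with 3 and 0 of 18. Scaling the single-cell libraries to their totals alone moved the log2 ratios by -0.35, which is more than the single-cell medians of the last 3 lists. The lysate ratios were scaled to totals alone, and TMM scaling moved them by 0.17. Actin and tubulin genes went from -0.27 to 0.69, TRiC subunits from -0.45 to 0.15, and translation factors from -0.47 to 0.03. Proteasome genes went from -0.06 to 0.51, and mitochondrial ribosomal protein genes from -0.08 to 0.32. Replication-independent histone genes went from 0.22 over 8 genes in lysate to -0.32 over 10 genes in single cells. The differences between lysate and single cells were not tested by list.

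**Figure D5:**
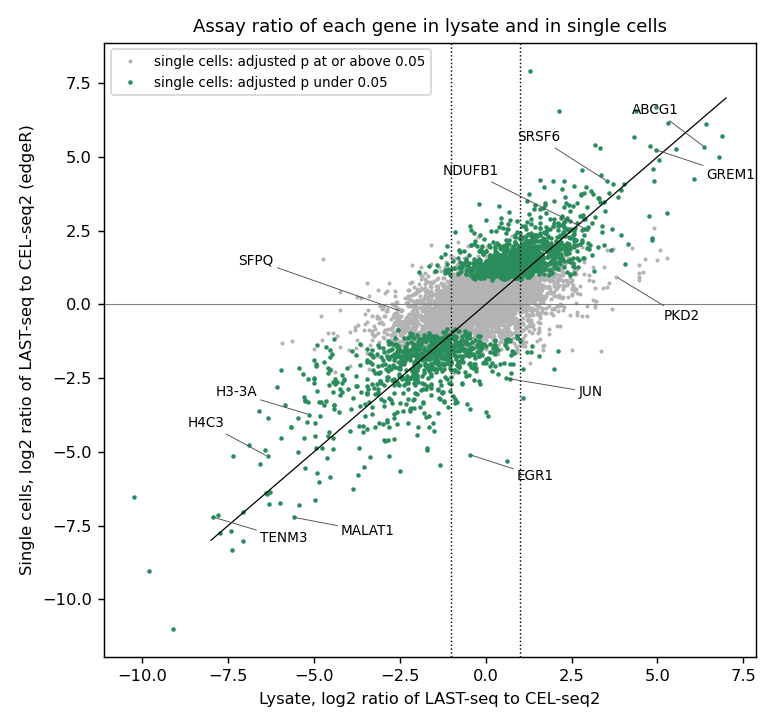
Log2 ratio of LAST-seq to CEL-seq2 of each gene with UMIs in both lysate libraries, in lysate (x axis, 1 library an assay) and in single HEK293T cells (y axis, edgeR, 2 libraries an assay), with genes under an adjusted p of 0.05 in green. Dotted lines mark 2-fold in lysate and the solid line equal ratios; MALAT1, H4C3 and TENM3 lie far below 0 on both axes, ABCG1, GREM1 and SRSF6 far above, and JUN and EGR1 near 0 in lysate and below 0 in single cells.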

How the data were processed

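Lysate of HEK293T was measured by LAST-seq and CEL-seq2 in 1 library of 10 wells each. The authors deposited UMI counts per gene and well, as whole numbers without normalization. Reads were demultiplexed with bcl2fastq, trimmed with cutadapt, subsampled to an equal depth across assays that is not named in the sources used here, and aligned to GRCh38 with the spike-in sequences in zUMIs, with GENCODE 33 as annotation. Exonic reads were counted, UMIs with low-quality bases were discarded and the rest were collapsed by sequence identity. The strand setting of the counting is not given in the sources used here. Subsampling limits how many molecules are seen in both assays, and exonic counting assigns reads of overlapping genes and copies by rules that were not examined.

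Wells were grouped by their labels. Spike-in species were removed, and each well was thinned without replacement to 62816 UMIs. Gene names, types and sequences came from GENCODE 44 canonical transcripts on GRCh38, which held 99.7% of the deposited identifiers. Ratios are of summed thinned UMIs, for genes that averaged 1 UMI or more over the 20 wells, and a gene at 0 was set at a floor of 3 UMIs over the library for its bound. Intervals are exact binomial at the 95% level. In the single-cell libraries, which held 1424870 to 1554129 UMIs each, sums per library were tested with edgeR 4.0.16 (filterByExpr, TMM, quasi-likelihood, Benjamini-Hochberg, threshold 0.05), and DESeq2 1.42.0 was an alternative. On counts simulated for the single-cell comparison over 11086 genes, edgeR recovered 16 of 100 genes changed 2-fold and 88 of 100 changed 4-fold with 2 false calls, so a missed threshold there says little about 2-fold differences. The thinning, ratio and CV steps were tested on simulated data as well.

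The genes named were those with non-overlapping wells and the 8 highest and 8 lowest ratios of protein-coding genes and 5 of other types in each direction, those at 0 in 1 assay first. To these were added the 2 most abundant members and the highest and lowest ratio of each gene list, all members of lists of 15 or fewer, the identity markers, and the 5 highest Fano factors in each assay at means of at least 5 UMIs. The comparison, its gene lists and these rules were chosen with earlier results of these data known. Genes of the Y chromosome were not named. The SMART-seq, total RNA and eHAP1 samples were not used. Alternatives covered thinning, minimum, fold, scaling, the labelled CEL-seq2 wells, left-out wells or libraries, and the test. Python 3.11.15 with numpy 2.4.6, pandas 2.3.3 and scipy 1.17.1 and R 4.3.3 were used.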

Additional observations from a re-analysis of the deposited data

Results flagged for a closer look

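Single wells stood apart from the other 9 of their library in 5 of 18 summaries of wells and in 13 of 188 sets of wells of named genes. A well was listed when its gap to the nearest other well, divided by the whole range, was above Dixon's 95% critical value for 10 wells, which chance exceeds in about 1 in 20 sets. In LAST-seq, the lowest protein-coding share was 77.0% with the next at 77.7% (gap over range 0.569), the highest lncRNA share 1.58% with the next at 1.45% (0.506), and the highest share of mitochondrial ribosomal and transfer RNA 2.09% with the next at 1.93% (0.503). In CEL-seq2, well 1 was the highest in deposited depth, with 123213 UMIs and the next at 90911 (0.657), and in protein-coding share, with 72.4% and the next at 69.3% (0.529). The protein-coding difference between the assays was 9.50 percentage points over all wells, and even that well lay below every LAST-seq well.

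Among named genes in CEL-seq2, the lowest well of RPL39 had 59 UMIs with the next at 86 (gap over range 0.614). The highest well of EIF5AL1 had 50 with the next at 33 (0.5), of HSP90AB1 79 and 65 (0.56), of CALR 14 and 6 (0.667), of NEAT1 22 and 15 (0.467), of OIP5-AS1 11 and 7 (0.5), of SFPQ 186 and 113 (0.477), and of CANX 58 and 22 (0.735). In LAST-seq, the lowest well of JUN had 25 with the next at 32 (0.7), while the highest well of HSP90AB1 had 53 and the next 34 (0.679), of EGR1 32 and 21 (0.55), of MTATP6P1 3925 and 3578 (0.602), and of CANX 34 and 26 (0.5).

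The assay difference of ENSG00000260109 was 10.8 larger on the log2 scale in lysate than in single cells in the interaction test (edgeR, adjusted p = 0.0337, the only one of 10646 genes to pass, with 874 at an unadjusted p under 0.05). The CEL-seq2 lysate had no UMI for it, so the size depends on the prior count of the fit and is no bound. With 1 lysate library an assay, the test takes the spread from the single-cell libraries.

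The CEL-seq2 lysate wells labelled A60 held 31 to 53 UMIs of spike-in species outside the A60 mix, where the LAST-seq lysate wells held 0 to 5. Which mix they received was not tested further, and no gene comparison rests on it.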

How the results depend on the processing

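The size and minimum chosen set the number of genes past 2-fold, 2884 in the report. It was 4441 with a minimum mean of 0.5 UMI, 1580 with 2, 13181 with no minimum and 1054 past 4-fold, and lay between 2756 and 2829 when any of the 20 wells was left out. The share of them higher in LAST-seq was 41.2%, and 50.8% with TMM factors. TMM moved every log2 ratio by 0.17 and reversed the median ratio from 0.944 to 1.07, so the direction of the centre of all genes depends on the scaling. That ratio was 0.889 with a minimum of 0.5 and 1.0 with a minimum of 2, and 0.939 to 0.963 with a well left out. The difference of -907.4 genes detected per well (LAST-seq minus CEL-seq2) was -508.9 at 2 UMIs or more, -1192.1 without thinning, where the wells overlapped, and -486.6 for protein-coding genes, with -941.9 to -861.9 when a well was left out. The difference in the protein-coding share of detected genes was 3.11 percentage points and 1.99 at 2 UMIs or more. The CV was the lower in LAST-seq for 62.2% of matched genes, for 65.9% at means of at least 5, for 58.2% and 56.8% with the 5 CEL-seq2 wells labelled A60 against LAST-seq wells 1 to 5 and 6 to 10, and for 59.9% to 62.5% with a well left out. With a minimum of 2, the median of the longest genes minus that of the others was -0.30 in place of -0.44, and that of genes with an A run minus those without was -0.14 in place of -0.25. Medians of 20 lists kept their sign with centred ratios and with a minimum of 0.5, except proteasome genes (0.023 centred), glycolysis genes (-0.094 at 0.5) and mitochondrial ribosomal protein genes (0 centred).

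In single cells, 1092 to 2737 genes passed when a library was left out, with the low values for either LAST-seq library, and 2206 passed with DESeq2. Without scaling beyond library size the split was 738 to 2285 and all log2 ratios moved by -0.35. Past 4-fold in lysate, 598 of 1025 tested genes (58.3%) passed in the same direction, against 1193 of 2849 past 2-fold. FOS went from -2.98 to 3.29 over the left-out libraries, the only reversal among the named genes. Over all alternatives, 119 single-cell values of named genes lost the threshold and 71 gained it. The causes were not tested. No paired analysis was possible because the labels number no replicates, the numbers of the single-cell libraries following their order of deposit, and the lysate has 1 library an assay. Wells are lysate aliquots that were barcoded and pooled into 1 library per assay. Depth limits what is seen of genes under about 1 UMI per well, and no setting here replaces a second library.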

Other observations

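Some genes of the CEL-seq2 lysate were high in the same wells, chosen here after their values were seen. SFPQ had 186, 113 and 100 UMIs in wells 3, 4 and 6 and between 33 and 80 in the others. ZNF302, a zinc finger gene, had 43, 33 and 30 in these wells and between 12 and 22 in the others, and GEMIN8P3 had 118, 162 and 128 and between 43 and 98. TENM3 was high in other wells, with 149, 135 and 108 UMIs in wells 2, 10 and 8 and between 19 and 79 elsewhere. The wells of the A60 and ERCC labels are found in both sets. In LAST-seq, SFPQ and ZNF302 had between 6 and 21 and between 2 and 12 UMIs.

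Identifiers absent from GENCODE 44 held 2.13% of the thinned UMIs in CEL-seq2 and 0.180% in LAST-seq. ENSG00000269028 alone had 450 to 923 UMIs per well in CEL-seq2 and 13 to 25 in LAST-seq, and in the single-cell libraries 6996 and 10869 against 340 and 316. The annotation used gives it no name or type, so it was not assigned to a gene class.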
